A study of Mus musculus with 12 samples.

Results

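The transcriptional effect of a Huntington's disease (HD) transgene in striatum with normal p62 was measured in 6 mice aged 8 weeks, 3 with the transgene (HD;p62+/+) and 3 non-transgenic (NT;p62+/+). They are 6 of the 12 mice of a cross between an HD model and a p62 knockout. The gene for p62, an autophagy receptor, is Sqstm1. The other 6 (HD;p62-/- and NT;p62-/-) entered the same fit and are used below as a separate set of animals. Total RNA from dissected, frozen striatum was hybridised to whole-transcript arrays, and 19248 genes with a single gene symbol were compared, each by its brightest probe set. The 6 mice share the striatum, the age and normal p62 gene dosage. The sources used here do not give the HD line, its promoter or repeat length, the strain or the sex. The titles call the samples biological replicates, and nothing ties them to litters or days, so the p-values reflect only the variation among these samples. Because the transgene construct is not given, the Htt probe set (a difference of 0.04 ± 0.0773 (SE; limma, adjusted p = 0.762)) does not check the genotype.

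HD is caused by an expanded CAG repeat in the huntingtin gene, and the striatum is the forebrain nucleus that degenerates most. Its principal cells are GABAergic projection neurons, which integrate cortical glutamate with dopamine, acetylcholine and neuropeptides through cyclic AMP and calcium signalling. The mutant protein forms nuclear inclusions and is known to disturb transcription. All values below are log2 expression values, a difference is the HD mean minus the NT mean on that scale, and a gene "rose" or "fell" where limma's p-value, adjusted by the Benjamini-Hochberg method over all genes, was below 0.05.

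The labelled tissue was borne out by its markers: the 21 measured markers of projection neurons averaged between 10.73 and 10.89 in the NT mice and between 10.46 and 10.48 in the HD mice. With the HD transgene, 742 of the 19248 genes rose (3.85%) and 624 fell (3.24%), together 7.1%. Changes were small: the median size among the 1366 genes was 0.41, or 1.33-fold, and 21 genes changed at least 2-fold. At 1.5-fold or more there were 115 increases and 129 decreases. Over all genes the median difference was -0.01, with 9245 positive and 10003 negative differences. Values of the HD and NT mice did not overlap for 1364 of the 1366 genes, and for 6366 of all 19248 genes. The 1366 were picked by a test on these same values, so their separation is no further evidence. In bulk tissue, fewer cells of a type and less RNA per cell cannot be told apart. A second set of 6 mice, those without p62, showed the same direction for 1349 of the 1366 genes, as described at the end.

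Single mice moved these counts by more than 1.5-fold in all cases but HD mouse 2. Increases numbered 201, 433 and 174 without NT mouse 1, 2 and 3, and 169, 909 and 145 without HD mouse 1, 2 and 3. Decreases numbered 240, 412 and 266, and 252, 539 and 253, in the same order. The spread of log2 values over genes (SD) was 1.65, 1.66 and 1.65 in the NT mice and 1.71, 1.64 and 1.70 in the HD mice. With that SD as a covariate, 589 genes rose and 739 fell. Leaving out the third NT mouse without p62, whose SD was lowest (1.58), gave 1183 increases and 857 decreases.

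Marker means of the striatum's own neurons were lower in the HD mice. Of the 21 projection neuron markers 14 fell (66.7%) and 3 rose, with a median of -0.42, and the HD and NT means did not overlap. Without single mice 11 to 13 fell and 1 to 2 rose. The 14 markers of striatal interneurons averaged 8.64 to 8.86 in the NT mice and 8.15 to 8.27 in the HD mice, 7 fell (50%), and all 14 differences were negative, with a median of -0.48. Without single mice 3 to 7 of them fell. Markers of neighbouring tissues differed as well. The 14 markers of thalamic, septal and pallidal neurons all had negative differences (median -0.34, 1 past the test, and 0 past it in 5 of the 6 sets without 1 mouse). Their mean was 8.39 in NT mouse 2, against 7.56 and 7.54 in NT mice 1 and 3 and 7.33 to 7.59 in the HD mice. The 14 cortical excitatory neuron markers averaged 8.24 to 8.65 in the NT mice and 7.83 to 8.04 in the HD mice, with 0 of 14 past the test and a median of -0.38. The 15 astrocyte markers averaged 10 to 10.16 and 9.89 to 9.93, with 1 lower, and 4 of 14 markers of mature oligodendrocytes fell, or 1 to 2 without single mice. The 10 choroid plexus markers averaged 7.10 to 7.48 in the NT mice and 7.0 to 8.35 in the HD mice, highest in HD mouse 1, with 0 past the test. With this choroid plexus mean added as a covariate, 295 genes rose and 368 fell. Microglial, endothelial, ependymal and oligodendrocyte precursor marker means overlapped between the groups. The part of these markers in the group counts below was not tested beyond the counts given with a covariate. The gene groups below were chosen with earlier results of these data known, and none was tested as a set. Their shares, set beside those of all genes, are descriptions.

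**Figure D1:**
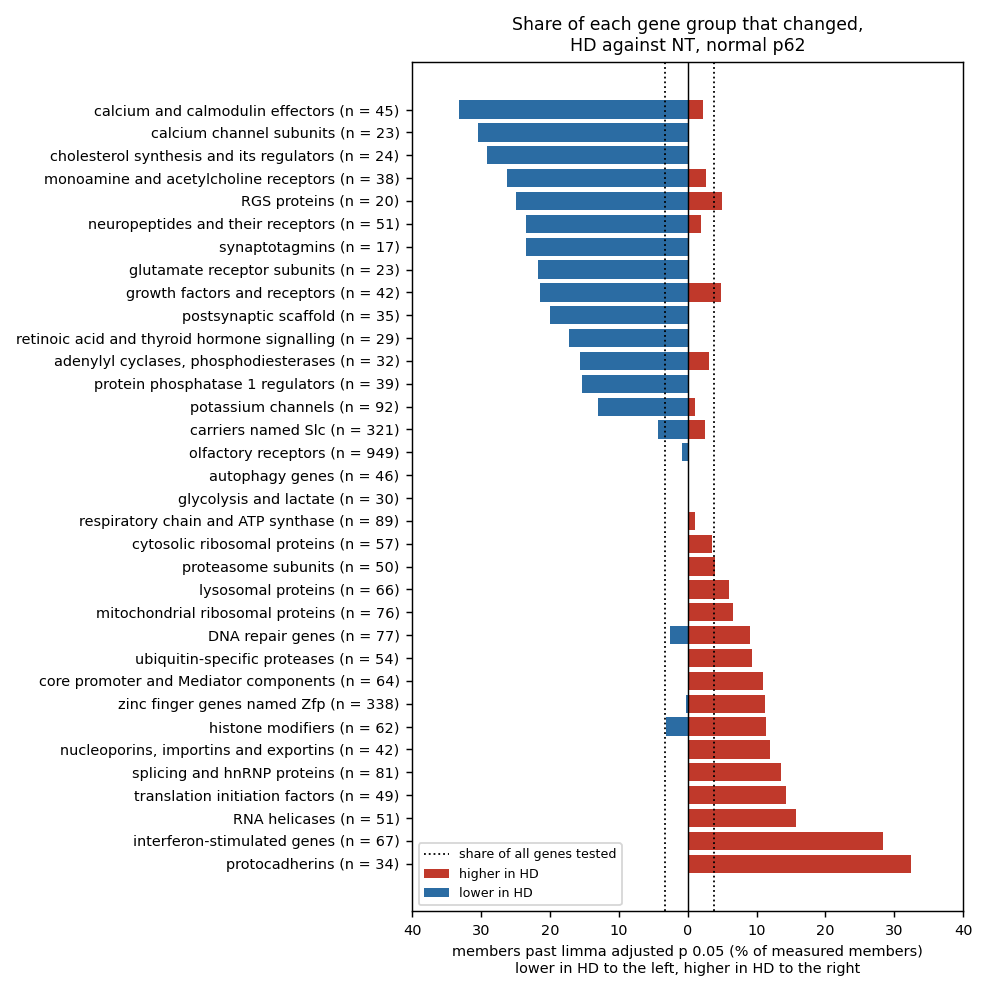
Percentage of measured members of 34 gene groups that were past limma's adjusted p of 0.05, lower in HD to the left and higher to the right, with dotted lines at the shares of all 19248 genes (3.24% lower and 3.85% higher). Groups of neuronal signalling extend to the left, up to 33.3% for calcium and calmodulin effectors, and groups of nuclear and RNA-processing genes, interferon-stimulated genes and protocadherins extend to the right, up to 32.4%.

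Of 45 measured calcium and calmodulin effectors, genes that carry or answer calcium signals, 15 fell (33.3%) and 1 rose with the HD transgene, with a median difference of -0.17. Ryr1, a calcium release channel of the endoplasmic reticulum, lay at 8.55, 8.55 and 8.46 in the NT mice and 7.34, 7.73 and 7.6 in the HD mice. All 3 HD mice were below all NT mice, HD mouse 1 lowest, and Ryr1 fell by 0.96 ± 0.127 (SE; limma, adjusted p = 0.00165). Camk2n1, an inhibitor of the kinase CaMKII, lay at 11.1, 11.27 and 11.26 in the NT mice and 10.21, 10.64 and 10.29 in the HD mice. HD mouse 2 was highest of the HD mice, still below every NT mouse, and the gene fell by 0.82 ± 0.109 (SE; limma, adjusted p = 0.00165). The plasma membrane sodium-calcium exchanger Slc8a2 fell by 0.71 and the calmodulin kinase-like protein Camkv by 0.49. Camk1g, a calcium/calmodulin-dependent kinase chosen here after its values were seen, fell by 0.95, the largest fall in the group after Ryr1. Stim1, which senses the calcium content of the endoplasmic reticulum, went the other way: it lay at 9.02, 9.0 and 9.04 in the NT mice and 9.34, 9.26 and 9.31 in the HD mice and rose by 0.28 ± 0.0649 (SE; limma, adjusted p = 0.0264). The calmodulin gene Calm2, the brightest member short of the threshold, differed by -0.07 ± 0.0638 (SE; limma, adjusted p = 0.503). The count of 15 became 8, 15 and 8 without NT mouse 1, 2 and 3, and 8, 12 and 10 without HD mouse 1, 2 and 3. Stim1 passed without HD mouse 2 and missed the threshold without any of the other 5 mice, and with the choroid plexus covariate. None of the 15 that fell is among the projection neuron or interneuron markers.

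Ion channel subunits that passed were mostly lower, while most members did not pass. Among 92 potassium channel genes, 12 fell (13%) and 1 rose, and 78 of the 92 differences were negative (median -0.15). Differences were also negative for 811 of 949 olfactory receptors, the comparison family described below, so this count of signs is not particular to potassium channels. Kcnh4, a voltage-gated channel of the ether-a-go-go family, lay at 8.64, 8.62 and 8.57 in the NT mice and 7.78, 7.86 and 7.89 in the HD mice. The groups were separated by more than their own ranges, and the gene fell by 0.77 ± 0.0625 (SE; limma, adjusted p = 0.000131). Its relative Kcnh3 fell by 0.72, the leak channel Kcnk9 by 0.79, and Kcnip2, an auxiliary subunit of A-type channels, by 0.56. Kcnd2, which forms the pore of such A-type channels, differed by -0.16 ± 0.0769 (SE; limma, adjusted p = 0.215). Kcng1, a modulatory subunit that does not form channels alone, rose by 0.33. The 12 decreases became 5, 8 and 3 without NT mouse 1, 2 and 3, and 5, 10 and 4 without HD mouse 1, 2 and 3, and 7 with the choroid plexus covariate. Kcng1 did not pass without NT mouse 3 or HD mouse 3.

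Of 23 calcium channel subunit genes, 7 fell (30.4%) and 0 rose. Cacng4, an auxiliary subunit that traffics AMPA receptors, lay at 10.95, 10.85 and 10.83 in the NT mice and 10.39, 10.29 and 10.43 in the HD mice and fell by 0.51 ± 0.0689 (SE; limma, adjusted p = 0.00194). The auxiliary subunits Cacnb1 and Cacna2d3 fell by 0.35 and 0.42, whereas Cacnb4 differed by 0.04 ± 0.0759 (SE; limma, adjusted p = 0.744). Cacng4 is also a marker of oligodendrocyte precursors, whose other 10 markers included 1 that rose (Enpp6, by 0.57) and 9 that did not pass. The 7 became 1, 4 and 1 without NT mouse 1, 2 and 3, and 1, 5 and 2 without HD mouse 1, 2 and 3, and 4 with the choroid plexus covariate. Of 11 sodium channel genes Scn4b alone passed, falling by 1.77, also without each of the 6 mice in turn. Scn4b is 1 of the 21 projection neuron markers. Of the 10 that did not pass, 5 had positive differences, Scn3b among them at 0.22 ± 0.076 (SE; limma, adjusted p = 0.0958).

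Among receptors for transmitters the decreases outnumbered the increases in each family, and most members did not pass. Of 38 monoamine and acetylcholine receptors, 10 fell (26.3%) and 1 rose (median -0.26). The muscarinic receptor Chrm4, which opposes dopamine signalling in striatal projection neurons, fell by 0.71 ± 0.0755 (SE; limma, adjusted p = 0.0005). The serotonin receptor Htr4 lay at 8.81, 9.1 and 9.01 in the NT mice and 8.26, 8.22 and 8.28 in the HD mice and fell by 0.72 ± 0.105 (SE; limma, adjusted p = 0.00304). The dopamine receptors Drd2 and Drd5 fell by 0.47 and 0.41, and the muscarinic receptor Chrm3, chosen after its values were seen, by 0.68. The 10 became 7, 8 and 7 without NT mouse 1, 2 and 3, and 5, 10 and 6 without HD mouse 1, 2 and 3, and 3 of them (Chrm4, Drd1 and Drd2) are projection neuron markers.

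The exception was Htr2c, a serotonin receptor abundant in choroid plexus. It lay at 7.81, 8.27 and 7.72 in the NT mice and 9.0, 8.71 and 8.6 in the HD mice and rose by 0.84 ± 0.212 (SE; limma, adjusted p = 0.0362), highest in HD mouse 1, the mouse with the highest choroid plexus mean (8.35). With that mean as a covariate its difference was 0.67 (limma, adjusted p = 0.0389). Without NT mouse 1, NT mouse 3, or any HD mouse it did not pass. HD mouse 3 had the lowest choroid plexus mean (7.0, against 7.10 to 7.48 in the NT mice). Its Htr2c value (8.6) was nevertheless above that of every NT mouse. The part of choroid plexus tissue in this rise was not tested further.

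Of 23 glutamate receptor genes, 5 fell (21.7%) and 0 rose, and 19 had negative differences. Grin2c, a subunit of NMDA receptors, lay at 8.72, 8.77 and 8.68 in the NT mice and 8.31, 8.23 and 8.27 in the HD mice and fell by 0.46 ± 0.0589 (SE; limma, adjusted p = 0.0014). The metabotropic receptor Grm4 fell by 0.57, the kainate receptor subunit Grik2 by 0.48 and the metabotropic receptor Grm3 by 0.43. Gria1, an AMPA receptor subunit, differed by 0.03 ± 0.0784 (SE; limma, adjusted p = 0.841). The 5 became 3, 4 and 3 without NT mouse 1, 2 and 3, and 4, 5 and 3 without HD mouse 1, 2 and 3. Among 18 GABA receptor genes Gabrd, the subunit of extrasynaptic receptors, alone passed (5.56%, near the 3.24% of all genes that fell): it lay at 10.29, 10.04 and 10.22 in the NT mice and 9.55, 9.53 and 9.6 in the HD mice and fell by 0.63 ± 0.0739 (SE; limma, adjusted p = 0.000874).

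Neuropeptides and their receptors gave 12 decreases among 51 measured members (23.5%) and 1 increase, with a median of -0.29. Of the 12, 2 (Penk and Pdyn) are also projection neuron markers and 2 (Npy and Sst) interneuron markers, lists of which 14 of 21 and 7 of 14 fell. The receptors for enkephalin and dynorphin, Oprd1 and Oprk1, fell by 0.61 and 0.73. Oprk1 lay at 8.07, 7.87 and 7.91 in the NT mice and 7.2, 7.21 and 7.24 in the HD mice, so that the HD mice lay close together and all NT mice lay well above them. Cckbr, a cholecystokinin receptor chosen after its values were seen, fell by 0.76. Among the peptides, Penk fell by 0.56 while Tac1, which encodes substance P, rose by 0.33 ± 0.0908 (SE; limma, adjusted p = 0.0492). Neither Tac1 nor Cckbr passed when any 1 of the 6 mice was left out, and the 12 decreases became 7, 7 and 6 without NT mouse 1, 2 and 3, and 4, 9 and 5 without HD mouse 1, 2 and 3.

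Several families of components that relay these receptors also had larger shares of decreases than all genes. RGS proteins speed the shut-off of G protein signals, and of 20 measured, 5 fell (25%) and 1 rose. Rgs14 lay at 8.5, 8.5 and 8.48 in the NT mice and 7.71, 7.88 and 7.85 in the HD mice and fell by 0.68 ± 0.0687 (SE; limma, adjusted p = 0.000356). Rgs4 fell by 0.92, Rgs9 by 0.63 and Rgs11 by 0.58, and Rgs2 differed by -0.24 ± 0.113 (SE; limma, adjusted p = 0.208). Rgs13 rose by 0.77 at a low level (percentile 5.21 of mean level among all genes). Leaving out any 1 of the 6 mice gave 4 or 5 decreases, and without NT mouse 2 or HD mouse 1 Rgs13 did not pass. Rgs9 is a projection neuron marker.

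Of 32 adenylyl cyclases and cyclic nucleotide phosphodiesterases, 5 fell (15.6%) and 1 rose, among those that fell the striatal cyclase Adcy5 (by 0.78) and the phosphodiesterases Pde10a (by 0.76) and Pde1b (by 0.46). Pde3b, a phosphodiesterase better known from insulin signalling, lay at 7.1, 7.22 and 7.13 in the NT mice and 7.5, 7.59 and 7.75 in the HD mice and rose by 0.46 ± 0.11 (SE; limma, adjusted p = 0.0288). The 5, of which Adcy5 and Pde10a are projection neuron markers, became 3, 3 and 3 without NT mouse 1, 2 and 3, and 3, 4 and 3 without HD mouse 1, 2 and 3. They were 3 with the choroid plexus covariate and 10 with the array SD as a covariate. Pde3b passed without HD mouse 2 and missed the threshold without any of the other 5 mice, and with the choroid plexus covariate.

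Regulators of protein phosphatase 1, through which dopamine acts on many substrates, gave 6 decreases among 39 (15.4%) and 0 increases. Ppp1r1a and Ppp1r1b, inhibitors that cyclic AMP-dependent kinase switches on, fell by 0.77 and 0.56, the targeting subunit Ppp1r16b by 0.62 and the spine protein Ppp1r9b by 0.44. Ppp1r16b lay at 11.16, 11.04 and 11.05 in the NT mice and 10.48, 10.33 and 10.57 in the HD mice. Leaving out any 1 of the 6 mice gave 4 decreases. Ppp1r1b is a projection neuron marker.

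Phosphoinositide and diacylglycerol signalling changed in both directions, with 6 of 42 members lower (14.3%) and 3 higher. The inositol trisphosphate kinase Itpka lay at 9.65, 9.38 and 9.39 in the NT mice and 8.62, 8.53 and 8.78 in the HD mice and fell by 0.83 ± 0.0938 (SE; limma, adjusted p = 0.000659). Inpp5j, an inositol polyphosphate phosphatase, fell by 0.59 and the phospholipase Plcb1 by 0.40. Diacylglycerol kinases split: Dgkz fell by 0.35, whereas Dgke lay at 7.54, 7.59 and 7.55 in the NT mice and 8.13, 7.96 and 8.07 in the HD mice and rose by 0.50 ± 0.0996 (SE; limma, adjusted p = 0.0148), and Dgka rose by 0.36. Without single mice, 2 to 4 members fell and 0 to 3 rose, the fewest without NT mouse 1 or 3 or HD mouse 3, and with the choroid plexus covariate 3 fell.

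**Figure D2:**
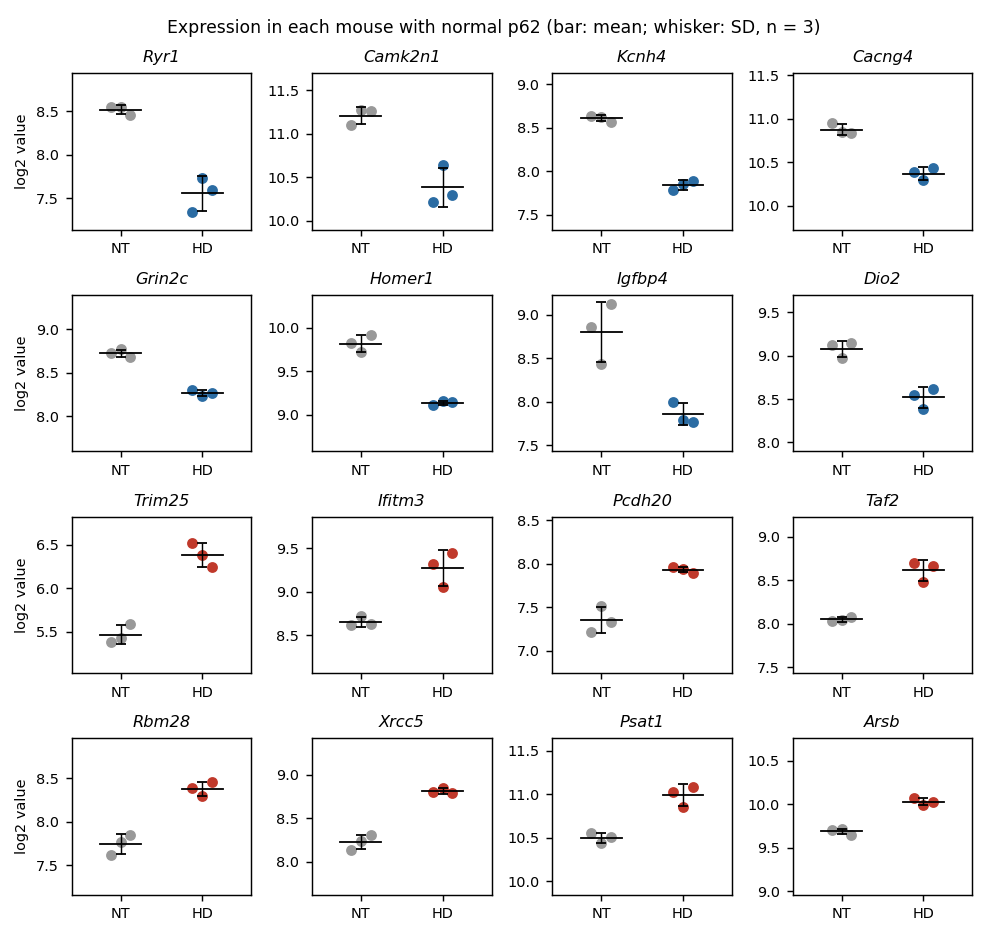
Log2 expression of 16 named genes in each of the 6 mice with normal p62; points are mice, horizontal bars group means and whiskers SD (n = 3 per group), and every panel spans the same 1.8 log2 units. All 16 genes passed the test on these values, and in each panel the 3 HD values lie wholly below (blue) or above (red) the 3 NT values.

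At the synapse, 7 of 35 members of the postsynaptic scaffold fell (20%) and 0 rose. Homer1, which links metabotropic glutamate receptors to calcium stores, lay at 9.82, 9.72 and 9.91 in the NT mice and 9.11, 9.16 and 9.14 in the HD mice and fell by 0.68 ± 0.0767 (SE; limma, adjusted p = 0.000659). The kainate receptor partner Neto2 lay at 11.07, 10.86 and 11 in the NT mice and 10.27, 10.02 and 10.27 in the HD mice and fell by 0.79 ± 0.0893 (SE; limma, adjusted p = 0.00066). The scaffold proteins Dlgap3 and Shank3 fell by 0.49 and 0.56, and Dlg4, the best known scaffold of excitatory synapses, differed by -0.24 ± 0.068 (SE; limma, adjusted p = 0.0509). The 7 became 4, 7 and 3 without NT mouse 1, 2 and 3, and 4, 6 and 4 without HD mouse 1, 2 and 3, and 4 with the choroid plexus covariate.

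On the presynaptic side, 4 of 17 synaptotagmins, a family of which only some members are calcium sensors of exocytosis, fell (23.5%): Syt12 by 0.49, Syt2 by 0.49, Syt9 by 0.42 and Syt10 by 0.39. The major sensor Syt1 differed by -0.02 ± 0.0865 (SE; limma, adjusted p = 0.916). Without single mice, 1 to 2 synaptotagmins passed, Syt10 in none of these 6 sets. Among 37 other members of the release machinery, 3 fell (8.11%) and 0 rose, including the priming factor Unc13a (by 0.39) and Doc2a (by 0.64), while Snap25 differed by -0.16 ± 0.0742 (SE; limma, adjusted p = 0.203). Without NT mouse 3 none of these 3 passed, and with the array SD as a covariate 6 members fell.

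Contactins and their associated proteins, which hold neuronal membranes together, gave the largest single increase of the comparison. Cntn6 lay at 3.72, 4.64 and 3.61 in the NT mice and 5.92, 5.33 and 6.25 in the HD mice and rose by 1.84 ± 0.415 (SE; limma, adjusted p = 0.0244), at percentile 7.48 of mean level. NT mouse 2 stood above the other NT mice, and Cntn6 did not pass without NT mouse 1 or 3 or HD mouse 1 or 3. In contrast Cntnap3 lay at 7.8, 7.75 and 7.76 in the NT mice and 6.88, 6.98 and 6.95 in the HD mice and fell by 0.83 ± 0.0783 (SE; limma, adjusted p = 0.000281), and Cntn5 and Cntnap1 fell by 0.39 and 0.52. These 3 decreases among 13 (23.1%) became 1 to 3 without single mice. Among 58 trans-synaptic adhesion molecules 2 fell (3.45%) and 1 rose, near the shares over all genes. Without single mice 0 to 2 of them fell and 0 rose, with the choroid plexus covariate 0 passed, and with the array SD 4 fell.

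Activity-regulated immediate early genes, which neurons switch on when they fire, gave 9 decreases among 37 (24.3%) and 0 increases, and 36 of 37 differences were negative. The transcription factor Egr3 lay at 9.52, 9.35 and 9.48 in the NT mice and 8.78, 8.77 and 8.88 in the HD mice and fell by 0.64 ± 0.0679 (SE; limma, adjusted p = 0.000464). Nptx2, a secreted pentraxin that clusters AMPA receptors, fell by 0.64. The phosphatases Dusp14, Dusp18 and Dusp1, which inactivate MAP kinases or related targets, fell by 0.71, 0.49 and 0.61, and Dusp15 rose by 0.54. Only these 4 of 24 such phosphatases passed (12.5% lower and 4.17% higher). Their 3 decreases became 1 without NT mouse 1 and 2 without any other mouse. Dusp1 passed in none of these 6 sets, and Dusp15 passed without NT mouse 2 or HD mouse 2 and in no other. The 9 immediate early genes became 4, 6 and 4 without NT mouse 1, 2 and 3, and 4, 7 and 4 without HD mouse 1, 2 and 3.

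Of 5 immediate early genes that fell and have a promoter window, Dusp1 was the 1 that held a full cyclic AMP response element, the letters TGACGTCA, which the factor CREB binds; a stretch of it is shown for that reason. RefSeq promoter windows (GRCm38.p6, 250 bases before to 50 after a start site) matched 15126 of the genes tested. In the stretch, which lies on the minus strand at chr17:26508583-26508640 and is written 5′ to 3′, capitals mark the element.
Dusp1: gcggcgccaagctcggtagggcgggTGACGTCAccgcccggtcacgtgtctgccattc
The element, which reads the same on both strands, was in windows of 2.73% of all genes, 4.17% of those that rose and 2.31% of those that fell. It was in 3 of 28 immediate early genes with a window, which had 1.64 windows per gene against 1.23 over all genes.

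Of 42 measured neurotrophins, other growth factors and their receptors, 9 fell (21.4%), 2 rose and 31 did not pass. Igfbp4, which binds insulin-like growth factors, lay at 8.85, 8.43 and 9.12 in the NT mice and 8.0, 7.79 and 7.77 in the HD mice and fell by 0.95 ± 0.143 (SE; limma, adjusted p = 0.00367), with the NT mice more spread than the HD mice. Its relative Igfbp6 fell by 0.45, the EGF-like ligand Hbegf by 0.56 and the neurotrophin-3 receptor Ntrk3 by 0.33. Ntrk2, the BDNF receptor, differed by -0.08 ± 0.075 (SE; limma, adjusted p = 0.541). The 2 that rose were Lifr (by 0.35) and Il6st (by 0.34), which form the receptor for leukaemia inhibitory factor. Decreases became 3, 5 and 4 without NT mouse 1, 2 and 3, and 4, 6 and 6 without HD mouse 1, 2 and 3. Of the increases 0 to 1 passed without single mice, 0 with the choroid plexus covariate and 1 with the array SD.

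TGF-beta and BMP genes gave 2 decreases among 41 (4.88%, near the 3.24% of all genes), the type I receptor Acvr1c (by 0.92) and the activin subunit Inhba (by 0.64). Acvr1c lay at 9.09, 8.92 and 9.11 in the NT mice and 8.29, 7.93 and 8.15 in the HD mice, and both genes passed without each of the 6 mice in turn. With the array SD as a covariate 5 fell. None of 26 fibroblast growth factor genes and none of 38 Wnt and Frizzled genes passed. The lowest p belonged to Fgf3 (-0.31 ± 0.0969 (SE; limma, adjusted p = 0.0691)) and Wnt4 (-0.22 ± 0.0723 (SE; limma, adjusted p = 0.088)), and the medians were -0.12 and -0.10.

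Of 29 genes that supply or read retinoic acid and thyroid hormone, 5 fell (17.2%) and 0 rose. Dio2, which makes the active thyroid hormone in brain, lay at 9.12, 8.97 and 9.14 in the NT mice and 8.55, 8.39 and 8.62 in the HD mice and fell by 0.56 ± 0.0968 (SE; limma, adjusted p = 0.00773). The retinol carrier Rbp4 fell by 0.61, the retinoid receptor Rxrg by 0.44 and the thyroid hormone-binding protein Crym by 0.43. Dhrs3, which turns retinal back to retinol and was chosen after its values were seen, fell by 0.76. The hormone receptor Thra differed by 0.02 ± 0.0995 (SE; limma, adjusted p = 0.942). The 5 became 1, 3 and 1 without NT mouse 1, 2 and 3, and 1, 2 and 3 without HD mouse 1, 2 and 3, and 3 with either the choroid plexus mean or the array SD as a covariate. Dhrs3 passed in none of the sets without 1 mouse.

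Of 24 measured genes of cholesterol synthesis and its regulators, 7 fell (29.2%) and 0 rose. The sterol oxidase Msmo1 lay at 9.68, 9.74 and 9.94 in the NT mice and 9.15, 8.63 and 9.14 in the HD mice, lowest in HD mouse 2, and fell by 0.81 ± 0.139 (SE; limma, adjusted p = 0.00727). Cholesterol export and breakdown gave 2 increases and 2 decreases among 15 (13.3% each). The export pump Abca1 lay at 8.27, 8.42 and 8.42 in the NT mice and 8.85, 8.85 and 8.86 in the HD mice and rose by 0.48 ± 0.0886 (SE; limma, adjusted p = 0.00996), and the lipid carrier Apod rose by 0.36. Lcat, which esterifies cholesterol on lipoproteins, and Cyp46a1, which makes the brain's excretable oxysterol, fell by 0.40 and 0.32. Apoe, the main lipid carrier of brain, differed by -0.25 ± 0.0693 (SE; limma, adjusted p = 0.0511). The 7 synthesis genes became 5, 4 and 3 without NT mouse 1, 2 and 3, and 7, 4 and 3 without HD mouse 1, 2 and 3. Abca1 and Lcat passed without each of the 6 mice in turn, Apod in 3 of these sets and Cyp46a1 in 1. Of 50 sphingolipid and myelin lipid enzymes 3 fell (6%) and 0 rose: the fatty acid hydroxylase Fa2h by 0.43, the sphingomyelinase Smpd3 by 0.39 and the sialyltransferase St8sia3 by 0.36. Without single mice 0 to 3 fell, with the choroid plexus covariate 1 and with the array SD 6.

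Of 67 measured interferon-stimulated genes and sensors of viral RNA, 19 rose (28.4%, against 3.85% of all genes) and 0 fell, with a median of 0.21. Trim25, a ubiquitin ligase that activates the RNA sensor RIG-I, lay at 5.39, 5.43 and 5.59 in the NT mice and 6.52, 6.38 and 6.24 in the HD mice. The ranges of the groups were far apart, and Trim25 rose by 0.91 ± 0.0942 (SE; limma, adjusted p = 0.000411). Ifitm3, a membrane protein that blocks virus entry, lay at 8.62, 8.72 and 8.63 in the NT mice and 9.33, 9.05 and 9.45 in the HD mice and rose by 0.62 ± 0.105 (SE; limma, adjusted p = 0.00717). Rtp4, induced by interferon and chosen after its values were seen, rose by 0.80. The receptor subunit Ifngr1 differed by -0.05 ± 0.0812 (SE; limma, adjusted p = 0.737). The 19 became 7, 15 and 10 without NT mouse 1, 2 and 3, and 8, 12 and 7 without HD mouse 1, 2 and 3, and 12 when the choroid plexus mean was a covariate. Among complement and microglial genes, 1 of 48 rose (2.08%) and 2 fell (4.17%), near the shares over all genes.

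Promoters of 4 of these genes are shown because they hold the interferon-stimulated response element, searched as GAAANNGAAA on both strands, which STAT and IRF factors bind. Each stretch lies before a RefSeq start site of GRCm38.p6 and is written 5′ to 3′ along the gene's strand, with every match in capitals. In Ifit3, Gbp3 and Ifit1 the match is on the opposite strand, so its reverse complement is printed, and in Gbp3 and Irgm1 both matches overlap.
Ifit3: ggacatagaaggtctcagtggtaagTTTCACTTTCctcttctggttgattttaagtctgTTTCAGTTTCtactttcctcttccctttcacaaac
Gbp3: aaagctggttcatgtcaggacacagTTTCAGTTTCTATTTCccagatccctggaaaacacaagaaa
Irgm1: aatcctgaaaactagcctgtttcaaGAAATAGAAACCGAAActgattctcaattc
Ifit1: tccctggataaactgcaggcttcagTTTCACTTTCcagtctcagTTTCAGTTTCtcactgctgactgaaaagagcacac
The stretches are chr19:34583348-34583441, chr3:142559974-142560039 and chr19:34640760-34640838 on the plus strand and chr11:48871421-48871475 on the minus strand, each with 2 matches. The 4 genes, chosen after their values were seen, encode proteins of cellular antiviral defence. Ifit3 lay at 7.43, 7.79 and 7.5 in the NT mice and 8.48, 8.22 and 8.27 in the HD mice and rose by 0.75 ± 0.167 (SE; limma, adjusted p = 0.0233). Gbp3 rose by 0.73, Irgm1 by 0.67 and Ifit1 by 0.57, the last with an adjusted p of 0.0493 and past the threshold in none of the sets without 1 mouse. Ifit and Gbp genes lie in families of close relatives whose transcripts can share probe signal.

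The element occurred in windows of 18 of 51 interferon-stimulated genes with a window (35.3%), and of 7 of the 15 that rose: Ifih1, Eif2ak2 and Ifitm3 besides those shown, in which no match ended before the start site. Among all genes the share was 3.84%, among all that rose 4.49% and among those that fell 3.99%. A match is a description of these letters and not evidence of binding. Other motifs were found in few members. The sterol response element TCACNCCAC was in 0 of 20 cholesterol synthesis genes (1.39% of all genes). The ATF4 motif TGATGNAAT was in 2 of 33 ATF4 targets (6.06%, against 0.813% of all), and in 0 of the 5 targets that rose. Among all genes that rose its share was 0.963%, and among those that fell 1.68%. The EGR site GCGTGGGCG was in 1 of 28 immediate early genes (3.57%, against 1.08% of all). It was in 0 of the 5 immediate early genes that fell and have a window. Each motif was searched on both strands.

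In antigen presentation, 2 of 24 genes matched as MHC class I and peptide loading rose (8.33%), or 1 to 3 without single mice. B2m, the light chain of MHC class I, lay at 10.31, 10.77 and 10.35 in the NT mice and 11.05, 11.08 and 11.09 in the HD mice and rose by 0.60 ± 0.113 (SE; limma, adjusted p = 0.0119), and the peptide trimmer Erap1 rose by 0.52. The name pattern also caught H2-DMa, a class II accessory gene, which fell by 0.41.

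**Figure D3:**
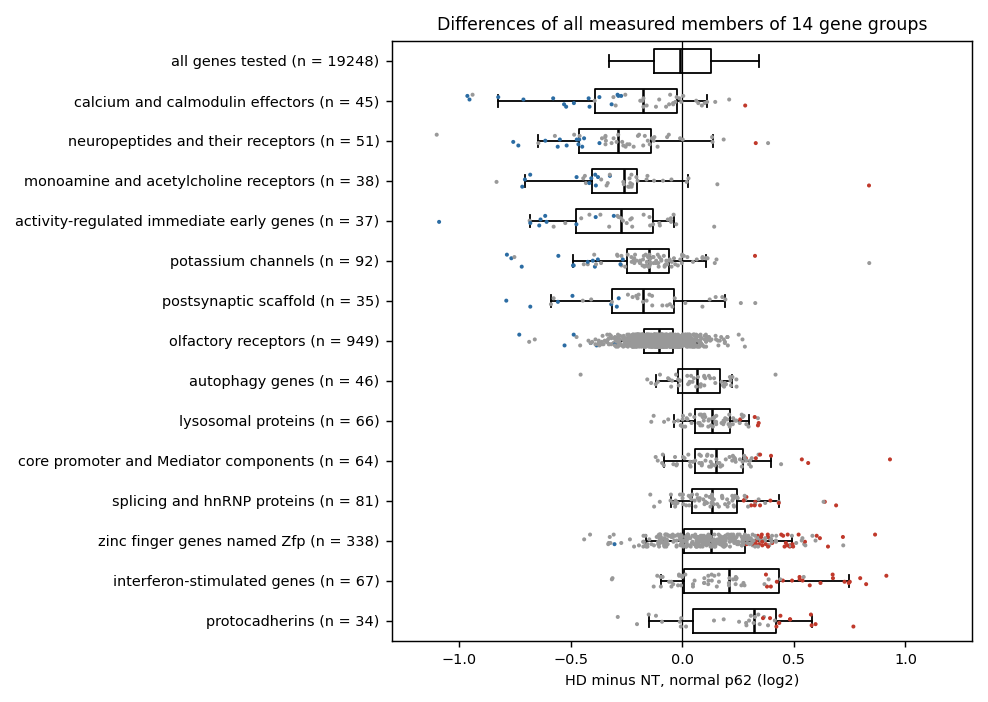
Log2 difference (HD minus NT, normal p62) of every measured member of 14 gene groups; red and blue points passed the test as higher and lower, grey points did not, boxes show quartiles and median, and whiskers the 5th to 95th percentile. Medians run from -0.29 for neuropeptides to 0.32 for protocadherins, beside -0.01 for all 19248 genes.

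Protocadherins, cell surface proteins that give neurons an adhesive identity, had the largest share of increases among the 76 functional lists. Those lists were chosen with earlier results of these data known, so the ranking is a description. Of 34 measured protocadherins, 11 rose (32.4%) and 0 fell, and the median was 0.32. Of the 11, 9 belong to the clustered beta family and 2, Pcdh10 and Pcdh20, do not. Pcdh20 lay at 7.21, 7.52 and 7.33 in the NT mice and 7.96, 7.94 and 7.9 in the HD mice and rose by 0.58 ± 0.077 (SE; limma, adjusted p = 0.00168), with the HD mice close together. Pcdhb3 lay at 6.71, 6.39 and 6.43 in the NT mice and 6.94, 7.19 and 7.19 in the HD mice and rose by 0.60 ± 0.104 (SE; limma, adjusted p = 0.00756). Pcdhb21 and Pcdhb12 rose by 0.58 and 0.48, and Pcdhb9, chosen after its values were seen, by 0.77. Beta genes resemble each other in sequence, so a shared probe signal can count several times. Pcdh9 differed by -0.01 ± 0.0627 (SE; limma, adjusted p = 0.961), and of 23 classical cadherins 1 rose (4.35%) and 0 fell. The 11 became 8, 8 and 6 without NT mouse 1, 2 and 3, and 7, 8 and 6 without HD mouse 1, 2 and 3, and 8 when the choroid plexus mean was a covariate.

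Several groups of nuclear genes had larger shares of increases than all genes. Of 338 zinc finger genes named Zfp, many of them DNA-binding repressors, 38 rose (11.2%) and 1 fell (0.296%), and 257 differences were positive. Zfp800 lay at 8.7, 8.71 and 8.59 in the NT mice and 9.22, 9.14 and 9.07 in the HD mice and rose by 0.47 ± 0.0668 (SE; limma, adjusted p = 0.00254). Zfp369 had the largest rise, by 0.86, and Zfp322a rose by 0.40, while Zfp180 fell by 0.30 and Zfp706 differed by -0.17 ± 0.0703 (SE; limma, adjusted p = 0.164). The 38 became 13, 15 and 8 without NT mouse 1, 2 and 3, and 5, 46 and 4 without HD mouse 1, 2 and 3, and 14 when the choroid plexus mean was a covariate. Many Zfp genes are close paralogs that can share probe signal.

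Components of the general transcription machinery and Mediator gave 7 increases among 64 (10.9%) and 0 decreases, with 55 positive differences. Taf2, a subunit of the promoter-binding complex TFIID, lay at 8.03, 8.04 and 8.08 in the NT mice and 8.7, 8.47 and 8.66 in the HD mice and rose by 0.56 ± 0.0922 (SE; limma, adjusted p = 0.00586). Its fellow subunit Taf4b rose by 0.93 and the related Taf15 by 0.40. The acetyltransferase Ep300 lay at 8.23, 8.34 and 8.23 in the NT mice and 8.94, 8.59 and 8.87 in the HD mice and rose by 0.54 ± 0.105 (SE; limma, adjusted p = 0.0139). Its paralog Crebbp, known to bind mutant huntingtin and chosen after its values were seen, rose by 0.35. Tbp, the TATA-binding protein, differed by 0.12 ± 0.0708 (SE; limma, adjusted p = 0.311). The 7 became 4, 4 and 3 without NT mouse 1, 2 and 3, and 3, 12 and 3 without HD mouse 1, 2 and 3, and 4 with the choroid plexus covariate.

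Histone-modifying enzymes gave 7 increases (11.3%) and 2 decreases (3.23%, near the 3.24% of all genes) among 62. The H3K4 methyltransferase family member Kmt2e rose by 0.53, the H4 methyltransferase Kmt5b by 0.51, and the deacetylases Sirt1 and Hdac2 by 0.45 and 0.46. Sirt1 lay at 7.24, 7.06 and 7.15 in the NT mice and 7.65, 7.52 and 7.64 in the HD mice. Prmt8 and Kdm4b fell by 0.35 and 0.23. Without NT mouse 3, HD mouse 1 or HD mouse 3, 1 member rose, and without any 1 mouse neither decrease passed. With the choroid plexus covariate 3 rose and 0 fell.

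Of 81 splicing and heterogeneous nuclear RNA-binding proteins, 11 rose (13.6%) and 0 fell, and 69 differences were positive. Rbm28 lay at 7.61, 7.77 and 7.84 in the NT mice and 8.38, 8.3 and 8.45 in the HD mice and rose by 0.64 ± 0.102 (SE; limma, adjusted p = 0.00506). The tri-snRNP protein Prpf3 rose by 0.35, the splicing regulators Rbm25 and Srsf6 by 0.39 and 0.43, and Rbm11, chosen after its values were seen, by 0.69. Hnrnpk, the brightest that did not pass, differed by 0.18 ± 0.0706 (SE; limma, adjusted p = 0.137). The 11 became 3, 6 and 2 without NT mouse 1, 2 and 3, and 2, 9 and 1 without HD mouse 1, 2 and 3, and 5 when the choroid plexus mean was a covariate.

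Of 51 RNA helicases, 8 rose (15.7%) and 0 fell. The nucleolar helicase Ddx21 rose by 0.42, Dhx40 by 0.42 and the abundant splicing coregulator Ddx5 by 0.37. Ddx5 lay at 11.02, 10.84 and 10.78 in the NT mice and 11.24, 11.25 and 11.26 in the HD mice, so that all HD mice were above all NT mice and close to each other. Ddx6 differed by 0.09 ± 0.0616 (SE; limma, adjusted p = 0.395). The 8 became 1, 3 and 1 without NT mouse 1, 2 and 3, and 1, 7 and 0 without HD mouse 1, 2 and 3, and 3 with the choroid plexus covariate.

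Transport through the nuclear pore was represented by 5 increases among 42 nucleoporins, importins and exportins (11.9%), with 38 positive differences. The import receptor Kpna4 lay at 6.14, 5.86 and 6.08 in the NT mice and 7.11, 6.82 and 7.06 in the HD mice and rose by 0.97 ± 0.225 (SE; limma, adjusted p = 0.0268). Tnpo1, Ipo8 and Xpo6, which carry proteins in or out of the nucleus, rose by 0.36, 0.26 and 0.27. Without NT mouse 1, 2 or 3 or HD mouse 1 or 3 the count of increases was 0, and without HD mouse 2 it was 4. It was 0 when the choroid plexus mean was a covariate and 3 with the array SD. Ipo8 and Xpo6 passed in none of the sets without 1 mouse.

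**Figure D4:**
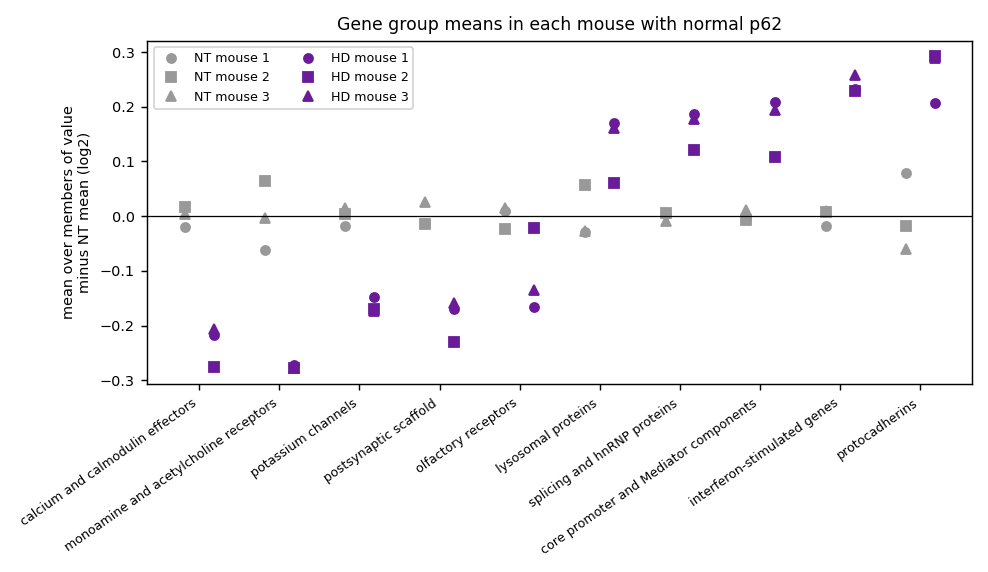
Mean over the members of 10 gene groups of each mouse's log2 value minus the NT mean of the gene, for the 3 NT mice (grey) and the 3 HD mice (purple), all with normal p62. Of the HD mice, mouse 2 lies nearest to the NT mice for lysosomal, splicing and core promoter groups (0.06, 0.12 and 0.11) and farthest for calcium effectors (-0.28), whereas for interferon-stimulated genes the HD mice lie at 0.23, 0.23 and 0.26.

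Of 49 translation initiation factors and kinases matched by name, 7 rose (14.3%) and 0 fell, and 44 differences were positive. The kinase Eif2ak4, which senses lack of amino acids, lay at 7.65, 7.72 and 7.77 in the NT mice and 7.98, 8.0 and 8.03 in the HD mice and rose by 0.29 ± 0.0614 (SE; limma, adjusted p = 0.0193). Eif2a rose by 0.37, the exon junction protein Eif4a3 by 0.33 and the Y-linked subunit Eif2s3y by 0.49. Among 76 mitochondrial ribosomal proteins 5 rose (6.58%), led by Mrpl39 (by 0.49), and 1 to 4 without single mice, and 1 with the choroid plexus covariate. Of 57 genes named as cytosolic ribosomal proteins, the 2 that rose (3.51%, below the 3.85% of all genes) were the paralogs Rps27l (by 0.41) and Rpl7l1 (by 0.40), and Rps6 differed by 0.12 ± 0.0571 (SE; limma, adjusted p = 0.203). The ribosomal count became 0 without any mouse other than NT mouse 2 or HD mouse 2, and 1 with either covariate. The initiation factor count became 1, 2 and 1 without NT mouse 1, 2 and 3, and 0, 5 and 1 without HD mouse 1, 2 and 3, 2 with the choroid plexus covariate and 4 with the array SD.

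Enzymes of serine, glycine, one-carbon and asparagine metabolism gave 3 increases among 33 (9.09%). Psat1, of serine synthesis, lay at 10.56, 10.44 and 10.5 in the NT mice and 11.03, 10.85 and 11.09 in the HD mice and rose by 0.49 ± 0.0855 (SE; limma, adjusted p = 0.00796), and Shmt2 and Asns rose by 0.48 and 0.29. These 3 and Eif2ak4 are also 4 of the 5 ATF4 targets and stress response genes that rose among 40 (12.5%). Without single mice these counts were 1 to 3 and 1 to 5, and with the choroid plexus covariate 1 and 2. None of 34 tRNA synthetases passed, and Tars, with the lowest p, differed by 0.32 ± 0.099 (SE; limma, adjusted p = 0.0695).

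Few protein turnover genes passed, although most members had positive differences. Of 66 lysosomal proteins, 4 rose (6.06%) and 0 fell, with 58 positive differences. The sulfatase Arsb lay at 9.7, 9.71 and 9.65 in the NT mice and 10.07, 9.99 and 10.02 in the HD mice and rose by 0.34 ± 0.0631 (SE; limma, adjusted p = 0.0101). Progranulin (Grn) rose by 0.34, the protease Ctsl by 0.32 and the proton pump accessory subunit Atp6ap1 by 0.26, and the count fell to 1 without NT mouse 1 or 3 or HD mouse 1 or 3, was 7 without HD mouse 2, and was 1 with the choroid plexus covariate.

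In the proteasome, 2 of 50 subunits rose (4%, near the 3.85% of all genes), the activator Psme4 (by 0.59) and Psmd1 (by 0.70). Neither passed without NT mouse 1 or HD mouse 1 or 3, or with the choroid plexus covariate. Of 54 ubiquitin-specific proteases 5 rose (9.26%), among them Usp18, which also restrains interferon signalling, by 0.53, and Usp37 by 0.42. Without single mice 1 to 4 passed, and 1 with the choroid plexus covariate. Of 82 heat shock, DnaJ and TRiC chaperones 4 rose (4.88%). The cochaperones Dnajc15, Dnajc12 and Dnajb14 rose by 0.33, 0.38 and 0.36, and Hspb11, a ciliary transport protein despite its name, by 0.64. Without single mice 0 to 7 of the 82 rose, and 1 with either covariate. The chaperone Hspa8 differed by 0.13 ± 0.0646 (SE; limma, adjusted p = 0.247).

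None of 46 autophagy genes passed limma's test, and 0 to 3 rose with 1 of the 6 mice left out. Their median difference was 0.07, and slightly below 0 with the array SD as a covariate. The kinase Ulk1, which starts autophagy, lay at 8.76, 8.78 and 8.8 in the NT mice and 8.96, 8.99 and 8.96 in the HD mice, a difference of 0.19 ± 0.0584 (SE; limma, adjusted p = 0.0718). Sqstm1, which encodes p62, differed by 0.24 ± 0.107 (SE; limma, adjusted p = 0.179). Its values were 11.19, 11.35 and 11.24 in the NT mice and 11.75, 11.26 and 11.51 in the HD mice, with HD mouse 2 inside the NT range. With 1 of the 6 mice left out, the adjusted p of Sqstm1 (limma) ran from 0.0395 to 0.542, so the outcome depended on single mice.

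Few genes of energy metabolism passed. Of 89 respiratory chain and ATP synthase genes 1 rose (1.12%), Ndufc1 (by 0.81), a subunit of complex I, or 0 to 4 without single mice. In the citric acid cycle, citrate synthase (Cs) and Dld rose by 0.23 and 0.51, 2 of 24 (8.33%). Cs passed in none of the sets without 1 mouse, Dld in those without NT mouse 2 or HD mouse 2, and neither with the choroid plexus covariate. Of 30 glycolysis and lactate genes none passed, and Aldoa differed by -0.01 ± 0.0568 (SE; limma, adjusted p = 0.927). Among 33 glutathione enzymes Gpx6, a glutathione peroxidase, alone passed (3.03%, near the 3.24% of all genes that fell). It lay at 8.35, 8.64 and 8.05 in the NT mice and 6.49, 6.75 and 6.51 in the HD mice and fell by 1.76 ± 0.158 (SE; limma, adjusted p = 0.000215), 3.39-fold lower.

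Of 77 measured DNA repair genes, 7 rose (9.09%) and 2 fell. Xrcc5, a subunit of the Ku complex that binds broken DNA ends, lay at 8.14, 8.24 and 8.3 in the NT mice and 8.8, 8.85 and 8.78 in the HD mice and rose by 0.58 ± 0.0999 (SE; limma, adjusted p = 0.00726). Prkdc, the kinase that Ku recruits, lay at 7.87, 7.7 and 7.82 in the NT mice and 8.24, 8.29 and 8.31 in the HD mice and rose by 0.48 ± 0.0878 (SE; limma, adjusted p = 0.0094). Xrcc4, of the same end-joining pathway and chosen after its values were seen, rose by 0.52 with an adjusted p of 0.0492. The nucleotide excision factor Xpa rose by 0.50. Msh3, a mismatch repair protein known to promote repeat expansion and also chosen after its values were seen, rose by 0.34 (8.26, 8.26 and 8.07 in the NT mice and 8.56, 8.5 and 8.55 in the HD mice). Ogg1, which removes oxidised guanine, and Fancb fell by 0.32 and 0.39. Msh3 did not pass when any 1 of the 6 mice was left out. Counts of increases became 3, 4 and 3 without NT mouse 1, 2 and 3, and 3, 8 and 3 without HD mouse 1, 2 and 3, 3 with the choroid plexus covariate and 4 with the array SD. Without single mice 0 to 2 fell.

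Receptors not thought to act in striatum served as a comparison. Of 949 olfactory receptors 8 fell (0.843%) and 0 rose, and of 198 vomeronasal and taste receptors 1 fell, all below the shares over all genes. Without single mice 0 to 20 and 0 to 3 fell. Their medians were nevertheless negative, -0.10 and -0.08, and with the array SD as a covariate -0.04 and -0.02. Differences were negative for 811 of the 949 and 153 of the 198, against 10003 of all 19248 genes. In HD mouse 2, whose array SD (1.64) lay with those of the NT mice, the olfactory receptor mean was -0.02 from the NT mean, against -0.17 and -0.14 in HD mice 1 and 3. Over all genes the median difference moved with brightness, from -0.08 in the dimmest 4812 genes to 0.05 in the brightest 4812. Small medians of the dim or bright groups above, and their counts of positive or negative differences, are to be read beside this.

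Of 21 nuclear receptors and 25 circadian clock genes none passed. Nr5a2 had the lowest p among the former (-0.37 ± 0.103 (SE; limma, adjusted p = 0.0515)) and Hlf among the latter (-0.34 ± 0.102 (SE; limma, adjusted p = 0.0628)), and the clock output gene Dbp differed by -0.30 ± 0.146 (SE; limma, adjusted p = 0.23). Keratins gave 4 decreases among 52 (7.69%, against 3.24% of all genes). Of these Krt6b fell by 1.53 at percentile 3.31 of mean level, and without single mice 1 to 4 keratins passed.

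Among single genes other than predicted ones, the largest decreases after Scn4b and Gpx6 and apart from Krt6b were Abi3bp (by 1.41), an extracellular matrix protein, Cpne9 (by 1.39), a calcium-dependent membrane-binding protein, and Phex (by 1.22), an endopeptidase. Phex lay at 7.27, 7.1 and 7.09 in the NT mice and 5.81, 5.96 and 6.01 in the HD mice. The largest increases after Cntn6 were Trappc13 (by 1.49), part of a vesicle tethering complex, the mitotic kinesin Kif4 (by 1.28), Nsun7 (by 1.13), a relative of RNA methyltransferases, and Zfand4 (by 1.13). Nsun7 lay at 5.9, 6.3 and 6.28 in the NT mice and 7.23, 7.45 and 7.18 in the HD mice and rose by 1.13 ± 0.127 (SE; limma, adjusted p = 0.000659). Trappc13 lay at 5.35, 6.37 and 5.86 in the NT mice and 7.68, 6.94 and 7.43 in the HD mice, with NT mouse 2 and HD mouse 2 nearest to each other. Several of these genes were dim: Kif4, Zfand4 and Cntn6 lay below the 10th percentile of mean level.

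The same contrast in the 6 mice without p62 shares no array with the one above, although both use 1 estimate of the spread. Of the 1366 genes, 1349 (98.8%) differed in the same direction there, 1107 (81.0%) also passed in that direction, and 0 passed in the other. Among the 17882 genes that did not pass with normal p62, 79.5% had the same sign. Without p62, 13.3% of genes were higher and 8.34% lower at the same threshold. A test of whether p62 genotype altered the HD difference passed for 0 genes (limma; lowest adjusted p 0.991, 665 genes at an unadjusted p below 0.05), which does not show that the effects are equal.

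**Figure D5:**
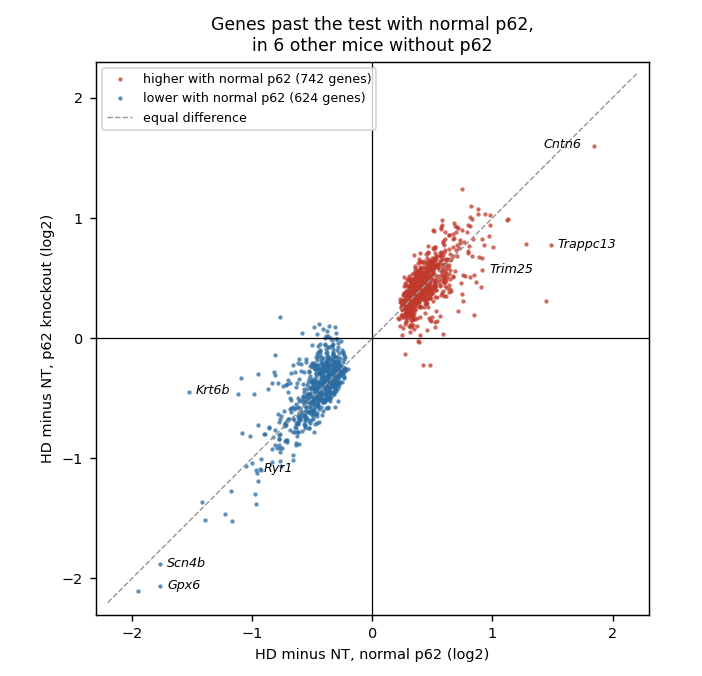
HD minus NT log2 difference with normal p62 (horizontal) against the same difference in 6 other mice without p62 (vertical) for the 742 genes that rose (red) and 624 that fell (blue) with normal p62; the dashed line marks equal differences. Nearly all points lie in the lower left and upper right corners, 1349 of 1366, and Krt6b, Trim25 and Trappc13 lie nearer to 0 on the vertical axis.

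By group, the 15 calcium effectors that fell and the 1 that rose all kept their sign without p62, and 15 of the 16 passed there. Of the 13 potassium channels called, 11 passed again, of the 19 interferon-stimulated genes 17, of the 11 protocadherins 10, of the 8 RNA helicases 8, of the 11 splicing genes 10 and of the 7 core promoter genes 7. Zinc finger genes passed again in 28 of 39 cases, and 37 of 39 kept their sign. Other groups, too, passed again less often than the 81.0% of all genes called. Among them were cholesterol synthesis (3 of 7), neuropeptides and their receptors (9 of 13) and adenylyl cyclases and phosphodiesterases (4 of 6). Semaphorins and plexins (3 of 6), Slc carriers (15 of 22) and the release machinery (1 of 3) were others. Without p62, Ryr1 differed by -1.10 ± 0.127 (SE; limma, adjusted p = 0.000469), Trim25 by 0.56 ± 0.0942 (SE; limma, adjusted p = 0.00354), Pcdh20 by 0.98 ± 0.077 (SE; limma, adjusted p = 3.74e-05) and Taf2 by 0.71 ± 0.0922 (SE; limma, adjusted p = 0.000962). Some leading genes did not pass there: Camk1g differed by -0.30 ± 0.158 (SE; limma, adjusted p = 0.179), Krt6b by -0.45 ± 0.318 (SE; limma, adjusted p = 0.31) and Kmt2e by 0.09 ± 0.0934 (SE; limma, adjusted p = 0.482).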

How the data were processed

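Per the labels' protocols, RNA from frozen striatum of each mouse (100 ng per array) was labelled for Affymetrix whole-transcript arrays. The values are log2 expression per probe set that the authors deposited; the submitters' processing notes name RMA, without a version or settings. RMA equalizes arrays and thus removes any change common to most genes, and without detection calls no gene could be called above background. Values ran from 1.99 to 13.77, array medians over genes lay between 7.79 and 7.83, and arrays of a group correlated at 0.988 to 0.995. The number of arrays limits precision.

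The platform table gave 19942 of 24055 probe sets 1 gene symbol, 1225 several and 2888 none. RefSeq's genes (GRCm38.p6) held the Entrez IDs of 19886, and 0 symbols changed. For 470 genes with several probe sets the brightest over 12 arrays was used. Of 36 such genes past the test, all probe sets passed the same way for 22 and 0 passed the opposite way.

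limma 3.58.1 (R 4.3.3) estimated group means from all 12 arrays together (8 residual and 4.14 prior degrees of freedom), with Benjamini-Hochberg adjustment over 19248 genes at 0.05. On simulated data for this contrast (19248 genes), recovery was 60 of 100 genes at a change of 0.5 and 95 of 100 at 1. The simulation had independent noise and changed these genes alone, in the HD mice with normal p62 only. The real data had more genes past the test and shifts shared by many genes, so recovery in them can differ. Groups were read from the sample titles. The labels do not say whether replicate numbers pair mice, and the main fit did not pair them. Deviations of same-numbered mice from their group means correlated at -0.047, -0.102 and -0.084. With so few mice this cannot exclude a shared litter or day.

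The members and the 76 functional and 12 cell type lists were chosen with earlier results of these data known, and no list was tested as a set. Named genes are, per list, up to 4 higher and 4 lower with the smallest p, the brightest that did not pass and, where none passed, those with the smallest p, then the 15 largest changes in each direction without overlap, Sqstm1 and Htt; 16 genes were added after their values were seen. Predicted genes (32 past the test) were counted and not named. Promoter windows were 250 bases before to 50 after RefSeq start sites. Alternatives were a replicate block, the 6 arrays alone, other normalizations, brightness filters, the mean of probe sets, trended or robust variances, array weights, covariates, other thresholds and each mouse left out.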

Additional observations from a re-analysis of the deposited data

How the results depend on the processing

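The numbers of genes that rose and fell (742 and 624) stayed within 1.5-fold with the 6 arrays alone, renewed quantile normalization, equal medians, brightness filters, averaged probe sets, trended or robust variances and the array SD as a covariate. With a replicate block they were 350 and 359, of which 693 had been called in the same direction. Similar totals did not always mean the same genes. Of the 1366 called in the main fit, 1054 recurred in the same direction with the 6 arrays alone and 1048 with the array SD. After renewed quantile normalization 1291 recurred, and with robust variances 1366. Array weights gave 2750 and 1875, the choroid plexus mean as a covariate 295 and 368, an adjusted p below 0.01 108 and 168, and one below 0.1 1647 and 1152. Without the 3 arrays of smallest SD, 672 rose and 413 fell. Leaving out each of the 12 mice in turn gave 145 to 1183 increases and 240 to 857 decreases. Apart from the changed threshold, the cause of these differences in counts was not tested. Leaving out 1 mouse did not always lower them: without the third NT mouse without p62 they were 1183 and 857. Increases were 54.3% of all calls, 44.4% with the array SD and 44.5% with choroid plexus content as a covariate. Of 287 named genes past the test, 83 missed it with the replicate block, 91 with the choroid plexus covariate and 38 with the array SD. In every alternative run other than the stricter threshold 115 passed, 119 passed without each of the 6 mice in turn, and 0 reversed. The number of arrays, and the lack of a detection call for dim genes, limit what could be seen.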

Other observations

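Orphan G protein-coupled receptors, whose ligands are unknown or disputed, changed in both directions, with 4 of 62 higher and 4 lower. Each is 6.45%, against 3.85% and 3.24% of all genes. Gpr139 lay at 9.64, 9.51 and 9.67 in the NT mice and 8.44, 8.48 and 8.41 in the HD mice and fell by 1.16 ± 0.0931 (SE; limma, adjusted p = 0.000131). Gpr83 lay at 10.09, 9.86 and 10 in the NT mice and 9.02, 9.24 and 9.12 in the HD mice and fell by 0.86 ± 0.0838 (SE; limma, adjusted p = 0.000328), and Gpr26 fell by 0.53. Gpr149 lay at 7.62, 7.32 and 7.52 in the NT mice and 8.07, 8.03 and 8.05 in the HD mice and rose by 0.56 ± 0.105 (SE; limma, adjusted p = 0.0108), and Gpr85 rose by 0.35. Gpr174 rose by 0.85 at percentile 1.41 of mean level. Without single mice 2 to 3 rose and 2 to 4 fell, and with the choroid plexus covariate 2 rose.

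Carriers named Slc, which move ions and metabolites across membranes, gave 8 increases (2.49%) and 14 decreases (4.36%) among 321, close to the shares over all genes. Slc4a11, of the bicarbonate transporter family, lay at 7.79, 7.79 and 7.78 in the NT mice and 6.39, 7.01 and 6.69 in the HD mice and fell by 1.08 ± 0.126 (SE; limma, adjusted p = 0.000792). The sodium-proton exchanger Slc9a5 fell by 0.61. Slc25a13, the mitochondrial aspartate-glutamate carrier, rose by 0.43, and Slc25a21, which carries oxodicarboxylates, rose by 0.81. Without single mice 2 to 5 rose and 5 to 12 fell, and with the choroid plexus covariate 3 rose.

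Of 33 genes named as semaphorins, plexins and neuropilins 5 fell (15.2%) and 1 rose (3.03%): Sema7a fell by 0.52, Sema4a by 0.53 and Sema5b by 0.36, while Plxnb3 rose by 0.44. The name pattern also caught Plxdc1, which is not a plexin and fell by 0.71. Without single mice 2 to 4 fell, the fewest without NT mouse 3 or HD mouse 3, and Plxnb3 passed without NT mouse 2 or HD mouse 2 and in no other set. Of 31 integrins 2 fell (6.45%, against 3.24% of all genes), in all 6 sets without 1 mouse. Itga9 lay at 8.24, 8.12 and 8.33 in the NT mice and 7.58, 7.51 and 7.33 in the HD mice and fell by 0.76 ± 0.106 (SE; limma, adjusted p = 0.00226). Itga5, which pairs with beta-1 integrin to bind fibronectin, fell by 0.72.

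Metal handling gave 3 increases (7.14%) and 1 decrease (2.38%) among 42, against 3.85% and 3.24% of all genes. Atp7a, the copper pump of the Golgi, lay at 7.09, 7.21 and 7.23 in the NT mice and 7.98, 7.75 and 7.81 in the HD mice and rose by 0.67 ± 0.113 (SE; limma, adjusted p = 0.00688). Fech, which inserts iron into haem, and Ireb2, an iron-sensing regulator of translation, rose by 0.36 and 0.32. Blvrb, a biliverdin reductase, lay at 8.78, 8.86 and 8.77 in the NT mice and 8.38, 8.25 and 8.31 in the HD mice and fell by 0.49 ± 0.0674 (SE; limma, adjusted p = 0.0021). The metallothionein Mt2 differed by -0.03 ± 0.068 (SE; limma, adjusted p = 0.842). Without single mice 1 to 2 rose and 1 fell, and with the choroid plexus covariate 1 rose. Ireb2 passed in none of the sets without 1 mouse.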
